A study of Homo sapiens with 6 samples.

Results

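Microexons, here exons of at most 30 nt, were taken from the skipped exon table of cells depleted of the splicing regulator SFSWAP. An exon entered when the junction reads of inclusion and skipping together averaged at least 20 per library, with 5 or more reads of each form in the 6 libraries summed. Each exon was kept as 1 event, the one with the most reads. This gave 864 microexons in 711 genes, out of 43287 exons of any length that met the same read limits. Before those limits the table held 2749 exons of at most 30 nt among 115683 exons. All 864 microexons were tested.

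The libraries came from HEK293A-TOA, a line derived from human embryonic kidney. In 3 of them the cells had received a non-target siRNA (siNT), and in the other 3 per the labels, a mix of 2 siRNAs against SFSWAP (siSFSWAP), with siRNA at 40 nM, a split after 1 day and 4 more days of growth. A figure legend of the study calls 1 of its SFSWAP siRNAs ineffective, and its reporting checklist defines replicates as cells passaged at different times. The table lists the libraries of a group without replicate numbers, so letters a, b and c follow list order, and a letter shared by both groups pairs nothing. The RNA of all cells of a culture was pooled, so fewer cells using an exon and less of it per cell cannot be told apart.

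Microexons are too short to be spanned by the usual complexes that define an exon, and many depend on dedicated activators. In neurons the best known of these is SRRM4, which acts near a TGC-containing element upstream of the exon, and many neuronal microexons keep the reading frame and alter protein interaction surfaces. SFSWAP carries SURP and arginine-serine-rich domains and is the human relative of the fly suppressor of white apricot, a regulator of alternative splicing. Most cells outside the nervous system also use a set of microexons, several of them in genes of membrane traffic and the cytoskeleton.

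The sequences of 11 microexons whose inclusion changed beyond the thresholds defined below are shown, so that the exon and the intron end in front of it can be read for both directions of change. Each run is the GRCh38 sequence of the coding strand, with 50 intron bases in lower case, the exon in capitals and 15 intron bases in lower case. All 11 are coding exons of the MANE Select transcript in GENCODE release 44. The following 8 fell after SFSWAP knockdown.
CYTH1 3 nt, chr17:78695992-78696059, minus strand: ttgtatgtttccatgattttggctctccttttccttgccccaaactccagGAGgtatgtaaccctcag
PITPNA 8 nt, chr17:1543005-1543077, minus strand: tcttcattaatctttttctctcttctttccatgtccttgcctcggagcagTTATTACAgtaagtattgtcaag
MYO5A 9 nt, chr15:52348803-52348876, minus strand: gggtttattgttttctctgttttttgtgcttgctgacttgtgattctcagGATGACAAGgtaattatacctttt
DNM2 12 nt, chr19:10808519-10808595, plus strand: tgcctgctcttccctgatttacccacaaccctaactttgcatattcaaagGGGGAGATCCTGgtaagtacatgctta
MON2 18 nt, chr12:62565964-62566046, plus strand: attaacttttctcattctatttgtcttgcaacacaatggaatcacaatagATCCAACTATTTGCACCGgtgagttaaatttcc
SUCO 21 nt, chr1:172577489-172577574, plus strand: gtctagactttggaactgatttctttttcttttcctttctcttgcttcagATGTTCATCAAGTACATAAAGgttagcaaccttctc
PTS 23 nt, chr11:112230158-112230245, plus strand: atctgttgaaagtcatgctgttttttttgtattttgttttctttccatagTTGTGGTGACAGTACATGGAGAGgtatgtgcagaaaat
ACOT9 27 nt, chrX:23734326-23734417, minus strand: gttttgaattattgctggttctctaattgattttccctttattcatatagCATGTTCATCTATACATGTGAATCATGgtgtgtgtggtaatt

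The following 3 rose after SFSWAP knockdown.
AP2M1 6 nt, chr3:184180595-184180665, plus strand: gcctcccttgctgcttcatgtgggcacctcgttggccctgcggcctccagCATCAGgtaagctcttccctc
CACNA1H 18 nt, chr16:1212461-1212543, plus strand: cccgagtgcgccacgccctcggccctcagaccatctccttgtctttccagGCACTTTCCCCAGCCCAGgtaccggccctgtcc
SH3GLB2 24 nt, chr9:129010655-129010743, minus strand: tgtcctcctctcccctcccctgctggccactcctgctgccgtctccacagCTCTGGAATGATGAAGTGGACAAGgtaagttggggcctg
Among the last 60 intron bases before the exon, G and C made up 25% at ACOT9, 26.7% at MON2, 30% at PTS, 35% at SUCO, 36.7% at MYO5A, 38.3% at PITPNA, 41.7% at DNM2 and 45% at CYTH1. The same share was 63.3% at AP2M1, 68.3% at CACNA1H and 68.3% at SH3GLB2. The 11 were chosen from the 22 called annotated exons, and the others overlap more. ECSIT and YIPF3, which also rose, were both at 55%, while the 12-nt SUPT5H exon, which fell, was at 61.7%, and the others that fell were between 21.7% and 33.3%.

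Knockdown was visible in the spliced reads of SFSWAP itself. These reads, junction reads summed over the exon events of a gene and scaled to library size (CPM), were 79.8, 86.6 and 80.3 CPM in siNT and 34.7, 34.7 and 21.4 CPM in siSFSWAP. The siSFSWAP mean of 30.3 ± 7.71 CPM (SD, n = 3) was 36.8% of the siNT mean of 82.3 ± 3.79 CPM, with a log2 change of -1.46 (SE 0.16, limma adjusted p = 0.000336). Over all genes 30.3% passed the adjusted p in this comparison. SRRM3, a neural relative of SRRM4, was under the read limit at 0.394 CPM in siNT and 0.881 CPM in siSFSWAP, and SRRM4, RBFOX1, NOVA1 and NOVA2 were not analysed here because they had no event to sum. Of the other splicing factors with known links to short exons, SRRM1 fell to 69.6% of siNT (limma adjusted p = 0.00374), MBNL1 fell to 80.8% (limma adjusted p = 0.0426) and QKI rose to 125.6% (limma adjusted p = 0.0219). SRRM2, SRSF11, RNPS1, PTBP1, PTBP2, RBFOX2 and U2AF2 did not pass the adjusted p. Of the line's expected genes VIM, KRT8 and KRT18 held 284, 110.2 and 54.6 CPM in siNT, while the neuronal SYT1 and RBFOX3 held 0.0829 and 0.0138 CPM.

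The libraries differed in depth, and siNT library a stood apart. The 864 microexons together held 471895 junction reads in siNT library a and 170591 to 277017 in the other 5. Inclusion is the inclusion reads over their effective length, divided by the sum with the skipping reads over theirs. A longer exon used in place of the microexon is not a form of its own in this share. The median inclusion of the 864 microexons was 74.0% in siNT library a, 64.9% in b and 62.1% in c. In siSFSWAP it was 65.8%, 63.9% and 60.1%. Exons above 60 nt showed the same order within siNT, at 90.4%, 85.9% and 85.0%. Counts of calls, the values by base composition and the medians by inclusion are also given without this library.

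Of the 864 microexons, 31 fell and 16 rose. An exon was called when the two-sided quasi-binomial F test, adjusted by Benjamini-Hochberg over all exon events tested, gave at most 0.05 and the mean inclusion changed by at least 20 percentage points. The 31 lower calls are 3.59% of microexons, against 0.698% of all 43287 exons, and the 16 higher calls are 1.85%, against 1.31%. The order of the higher calls turned with the setting. Without siNT library b 0.116% of microexons rose, beside 0.226% of exons above 60 nt, and by limma on log2 odds 0.231% beside 0.317%. Without siNT library a these were 3.36% and 2.66%. By the adjusted p alone, which 5.47% of all exons passed, 85 microexons were lower, where 2.33% of all exons were, and 27 were higher, where 3.14% of all exons were. The 3 libraries of each group did not overlap for 189 microexons with lower and 85 with higher siSFSWAP values, or 21.9% and 9.84%, beside 9.45% and 13.8% of all exons. The median change of microexons was -0.48 points, with quartiles of -4.07 and 1.37 points, while that of exons above 60 nt was 0.29 points. Without siSFSWAP library c, 13 microexons fell, and with any other library left out 21 to 27. The count that rose was 29 without siNT library a and 1 to 5 without any other library. No test was made over exons as a group, since exons are not replicates.

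**Figure D1:**
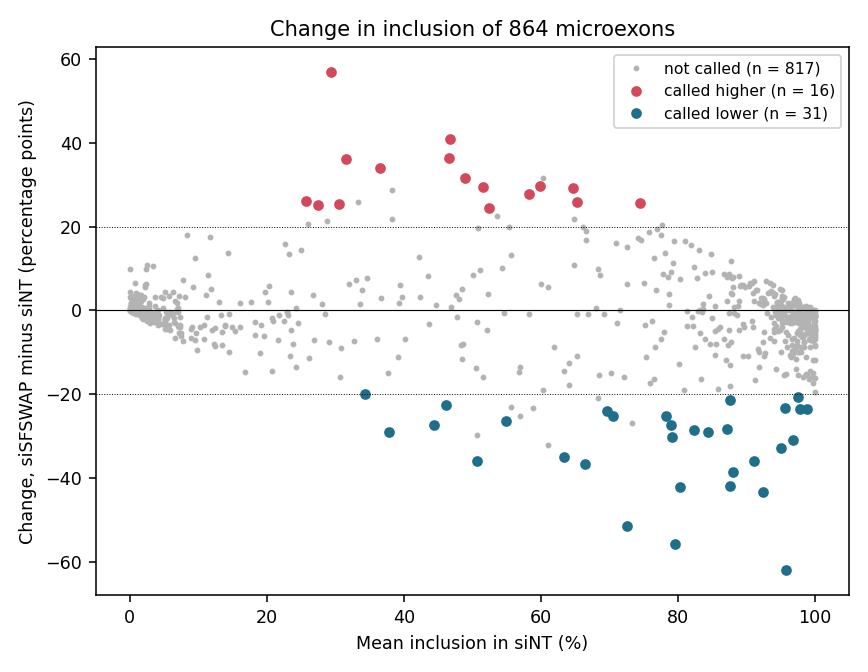
Change in mean inclusion (siSFSWAP minus siNT, percentage points) of 864 microexons against their mean inclusion in siNT (%), with dotted lines at 20 points either way. The 16 microexons called higher lie between 25.7% and 74.4% inclusion in siNT, and the 31 called lower between 34.3% and 98.8%.

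The share of exons that fell decreased with exon length, far into lengths above the microexon limit. Of exons included at 20% or more in siNT, which could fall by 20 points, 8.20% of those up to 15 nt fell, 4.86% of those of 16 to 30 nt, 3.55% of those of 31 to 45 nt and 2.17% of those of 46 to 60 nt. Between 61 and 90 nt it was 1.18%, and from 91 nt on it lay between 0.507% and 0.768% in each length class. The share that rose, among exons included at 80% or less in siNT, showed no such decrease with length. It was 3.05% up to 15 nt and highest from 16 to 30 nt, at 3.47%. From 31 to 45 nt it was 1.81%, from 46 to 60 nt 2.75%, and in each class above 60 nt 2.94% to 3.15%.

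Restricted to exons that GENCODE release 44 lists with the same start and end, the shares that fell were 11.9% of 42 exons up to 15 nt, 5.04% of 238 exons of 16 to 30 nt, and 0.364% to 0.854% in each class above 60 nt. The shares of annotated exons that rose were lower in short exons, at 1.82% up to 15 nt, 2.40%, 1.5% and 2.64% in the next classes up to 60 nt and 3.74% to 4.34% in each class above. The order by length was also present when libraries were left out. For microexons as a whole 5.60% of the 554 exons at 20% or more in siNT fell, against 2.66% of exons of 31 to 60 nt and 0.770% of longer ones. Without siNT library a these were 4.87%, 2.28% and 0.674%, and without siSFSWAP library c they were 2.35%, 0.810% and 0.187%. The limma test on log2 odds gave 2.35%, 0.887% and 0.213%. Just inside the limit, the 83 exons of 30 nt had a median change of -0.70 points, and just outside it the 69 exons of 31 nt had one of -1.14 points.

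**Figure D2:**
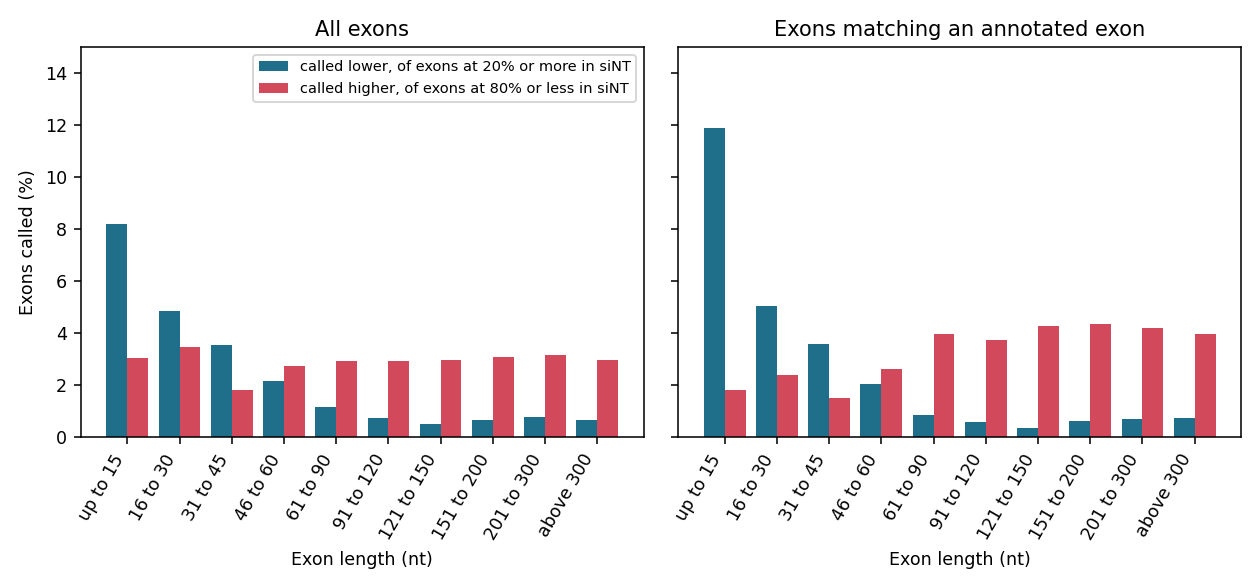
Percent of exons called lower (blue, of exons at 20% or more in siNT) and called higher (red, of exons at 80% or less in siNT) by exon length in nt, for all exons (left) and for exons matching an annotated exon (right). The blue bars are tallest up to 15 nt, at 8.20% and 11.9%, and stay under 1.2% above 60 nt.

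The microexons differed in how well they are defined. GENCODE release 44 lists 419 of the 864 with both the same start and the same end within 1 exon. Another 372 share 1 edge with an annotated exon, and 72 share none. Of the 864, 426 shared an edge, and so a junction, with a longer exon holding more inclusion reads. The inclusion of such a microexon is measured against skipping and not against the longer exon. Exons matching the annotation gave 17 lower and 5 higher calls, and those sharing no edge with such a longer exon gave 17 lower and 3 higher. The matching exons and the others are therefore described apart. The matching exons kept the reading frame more often than the others, since 66.8% against 39.8% had a length divisible by 3, beside 38.1% of exons above 60 nt. Of the 864, 850 followed AG and 836 were followed by GT.

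**Figure D3:**
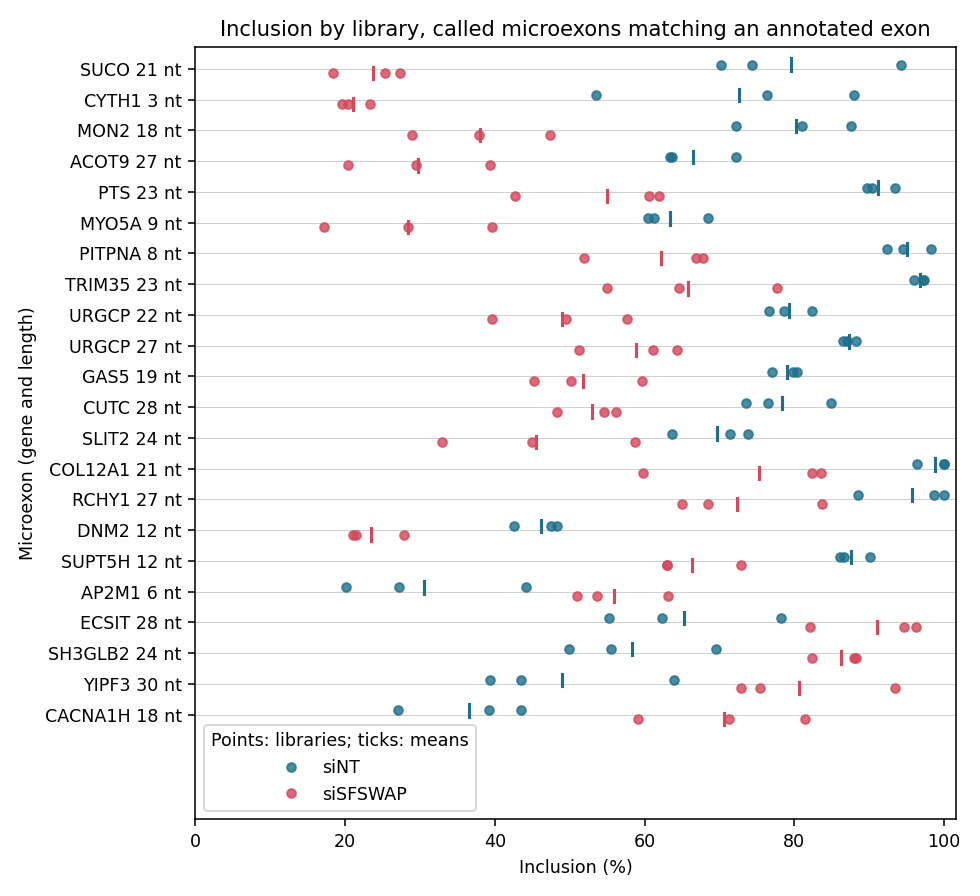
Inclusion (%) in each of the 3 siNT (blue) and 3 siSFSWAP (red) libraries for the 22 called microexons that match an annotated exon, with the group mean as a vertical tick. From SUCO to SUPT5H every siSFSWAP library lies below every siNT library, and from AP2M1 to CACNA1H every one lies above.

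Of the annotated microexons that fell, those in MON2, PITPNA and DNM2 were among the ones that remained called with any 1 library left out. MON2 is a scaffold of transport between endosomes and the Golgi, and its 18-nt exon 28 of 35 was included at 81.0%, 87.6% and 72.2% in siNT and at 47.3%, 37.9% and 28.9% in siSFSWAP. The groups lay far apart, and the mean fell by 42.2 points (adjusted p = 0.000203, quasi-binomial F test). The 8-nt exon 5 of 12 of PITPNA, a phosphatidylinositol transfer protein, shifts the reading frame and was included at 92.3%, 98.3% and 94.5% in siNT. It was included at 67.8%, 66.9% and 51.9% in siSFSWAP, a mean that fell by 32.9 points (adjusted p = 0.000194, quasi-binomial F test). The lowest siNT library was above the highest siSFSWAP library. DNM2 encodes dynamin, the GTPase that severs endocytic vesicles, and its 12-nt exon 14 of 21 went from 42.6%, 48.3% and 47.5% to 27.9%, 21.4% and 21%. This exon held 278 reads per library on average, and its mean inclusion fell by 22.7 points (adjusted p = 8.46e-05, quasi-binomial F test).

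MYO5A, the class V myosin that carries organelles along actin, has a 9-nt exon 29 of 42 in its tail, in a stretch known for binding dynein light chain. It was included at 68.5%, 60.4% and 61.3% in siNT and at 28.4%, 39.6% and 17.1% in siSFSWAP, and fell by 35 points (adjusted p = 0.00265, quasi-binomial F test). Without siSFSWAP library c, the lowest of the 6, the adjusted p was 0.0900. The shortest exon that fell was the 3-nt exon 10 of 14 of CYTH1, cytohesin-1, an exchange factor for ARF GTPases. This exon is known to add 1 glycine to the lipid-binding PH domain. Its inclusion was 53.5%, 87.9% and 76.4% in siNT and 23.3%, 19.5% and 20.3% in siSFSWAP, and it fell by 51.6 points (adjusted p = 0.00700, quasi-binomial F test). The siNT libraries spread widely at a mean of 20.8 reads per library, and the call was kept only without siNT library a, with an adjusted p of up to 0.122 otherwise.

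The related exon of CYTH2, also 3 nt long, was included at 63.3%, 64.8% and 67.6% in siNT and at 48.4%, 54.0% and 60.3% in siSFSWAP, so the groups did not overlap while the change of -11.0 points did not pass (adjusted p = 0.110, quasi-binomial F test). The 3-nt exon of ASXL1, a chromatin regulator, changed by -6.78 points (adjusted p = 0.277, quasi-binomial F test), and those of VDAC3, CDV3 and RPS24 were included at 1.28%, 0.280% and 0.442% in siNT and at 0.429%, 0.615% and 0.1% in siSFSWAP, of which the difference in RPS24 passed the adjusted p (0.0425, quasi-binomial F test).

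SUCO, an ossification factor of the endoplasmic reticulum, showed the largest fall of an annotated microexon, with its 21-nt exon 12 of 24 at 70.1%, 94.3% and 74.3% in siNT and 25.4%, 27.3% and 18.4% in siSFSWAP. That is a change of -55.9 points at a mean of 23.8 reads per library (adjusted p = 0.00117, quasi-binomial F test), and it remained called whichever 1 library was left out. The 27-nt exon 3 of 16 of ACOT9, a mitochondrial acyl-CoA thioesterase, held 518 reads per library and fell from 72.2%, 63.6% and 63.4% to 39.3%, 29.5% and 20.4%. The groups were separated by more than the spread of either, with a change of -36.7 points (adjusted p = 1.44e-07, quasi-binomial F test). PTS makes a precursor of the cofactor tetrahydrobiopterin, and its 23-nt exon 3 of 6, which shifts the frame, fell from 93.4%, 90.3% and 89.6% to 60.5%, 61.9% and 42.7%. The change of -36.1 points passed at 2.79e-07 (adjusted p, quasi-binomial F test), and both ACOT9 and PTS remained called whichever 1 library was left out.

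In SUPT5H, a subunit of the elongation factor DSIF, the 12-nt exon 5 of 30 fell from 90.1%, 86.0% and 86.6% to 72.9%, 63.0% and 62.9% (adjusted p = 1.42e-05, quasi-binomial F test). Without siSFSWAP libraries b or c its change stayed past the adjusted p but was under 20 points, the smallest being -19.7 points. A 15-nt form of the same exon, which starts 3 bases earlier and is not annotated, fell by 27.4 points from 44.4%. The 24-nt exon 15 of 37 of SLIT2, a secreted guidance ligand, went from 71.3%, 63.7% and 73.8% to 58.7%, 44.9% and 32.9%, a fall of 24.1 points (adjusted p = 0.00369, quasi-binomial F test). It was called in only 1 of the 6 sets of 5 libraries, the one without siSFSWAP library a, and its adjusted p reached 0.112. The 27-nt exon of ROBO1, the receptor of SLIT2, changed in the same direction, at 65.1%, 66.3% and 61.1% against 47.5%, 43.0% and 48.1%. This change of -17.9 points passed the adjusted p at 0.0366 (quasi-binomial F test) but not the 20 points, and it lost the adjusted p without any 1 library, with 0.0768 to 0.154.

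COL12A1, the fibril-associated collagen XII, fell by 23.5 points at its 21-nt exon 30 of 66, from 100%, 100% and 96.4% to 83.6%, 59.8% and 82.4% (adjusted p = 0.0149, quasi-binomial F test). The ubiquitin ligases RCHY1, with a 27-nt exon, and TRIM35, with a 23-nt exon, fell by 23.4 and 31.1 points. CUTC, a copper-binding protein, fell by 25.3 points at a 28-nt exon. URGCP, a proliferation gene, gave 2 overlapping exons of 22 and 27 nt that share an edge and fell by 30.3 and 28.3 points. GAS5, a noncoding snoRNA host, fell by 27.4 points at a 19-nt exon that shares an edge with a 23-nt one. The 23-nt exon held 3603 inclusion reads against 460 for the 19-nt exon, and it changed by -8.31 points. Both URGCP exons lost the call without any 1 of the 6 libraries, with an adjusted p of 0.0635 to 0.179 for the 22-nt form. COL12A1 kept its call only without siNT library c, RCHY1 lost it without siNT library c or siSFSWAP libraries a or c, CUTC without siSFSWAP libraries a or c, and TRIM35 without siSFSWAP library c. Their adjusted p then reached 0.117, 0.122, 0.0700 and 0.0557.

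The annotated microexons that rose were 5. AP2M1 encodes the cargo-binding mu subunit of the endocytic adaptor AP-2, and its 6-nt exon 5 of 12 held 803 reads per library. Its inclusion was 44.2%, 27.3% and 20.2% in siNT and 63.1%, 53.6% and 50.9% in siSFSWAP, a rise of 25.3 points (adjusted p = 0.00230, quasi-binomial F test). Every siSFSWAP library was above every siNT library, with siNT library a the nearest. The 18-nt exon 26 of 35 of CACNA1H, a T-type calcium channel, rose by 34.0 points from 43.4%, 39.2% and 27% to 59.0%, 81.4% and 71.2% (adjusted p = 0.0141, quasi-binomial F test). The 24-nt exon 7 of 11 of SH3GLB2, endophilin B2, rose by 27.8 points from 69.5%, 55.5% and 50% to 88.0%, 82.3% and 88.2% (adjusted p = 0.00148, quasi-binomial F test). ECSIT and YIPF3, at 28 and 30 nt, rose by 25.8 and 31.7 points, and both exons share an edge with a longer annotated exon.

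The rises depended on single libraries of either group more than the falls did. The count of microexons that rose was 1 and 4 without siNT libraries b or c. It was 2, 5 and 3 without siSFSWAP libraries a, b or c. AP2M1 lost its call without siNT libraries b or c or siSFSWAP libraries a or c, with an adjusted p of up to 0.220, and CACNA1H without siNT libraries b or c or siSFSWAP libraries b or c, with up to 0.156. SH3GLB2 lost it without siNT library b or siSFSWAP libraries a or c, with up to 0.0667, and ECSIT without siNT libraries b or c or siSFSWAP libraries a or c, with up to 0.189. YIPF3 kept it only without siNT library a, with up to 0.311 otherwise. 13 of the 31 that fell and 1 of the 16 that rose, the 24-nt IMPDH2 exon, remained called whichever library was left out.

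The remaining calls were exons that GENCODE release 44 does not list as such, 14 lower and 11 higher. Except for the DIAPH2 exon, each shares 1 edge with an annotated exon, and except for DIAPH2 and the 15-nt SUPT5H form, with a longer one that holds more reads. IQCB1, a ciliary protein, had the largest fall of all, by 62.1 points at 11 nt, from 100%, 97.0% and 90.3% to 39.9%, 39.6% and 21.5% (adjusted p = 7.65e-06, quasi-binomial F test). The 110-nt annotated exon with which it shares an edge passed the adjusted p and changed by -15.9 points. That exon held 2038 inclusion reads over the 6 libraries, while the 11-nt form held 140. GRAMD1A, a sterol transfer protein, fell by 43.4 points at 18 nt, from 92.8%, 90.3% and 94.1% to 49.0%, 47.2% and 51.0%. The 21-nt exon that includes it changed by -8.68 points. CCT5, a chaperonin subunit, fell by 38.7 points at 21 nt, and its 165-nt exon changed by -7.04 points. These forms held 1122 and 22044 inclusion reads. In PCBP2, an RNA-binding protein, the 23-nt form fell by 20 points and the annotated 39-nt exon by 28.4 points.

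Of all called microexons, 14 lower and 13 higher ones shared an edge with a longer exon holding more inclusion reads. The longer exon was lower in 14 of the 14 and called in 4 of them (SNHG1, PCBP2, PRELID3B and URGCP). It was higher in 12 of the 13 and called in 1 of them (SRRT). The longer exon moved less than the short form in 12 of the 14 lower and 13 of the 13 higher pairs. Since both forms share a junction and each is measured against skipping, their changes are not independent. Other unlisted forms that fell were in UBE2E1, PRELID3B, SNHG1, DIAPH2, RTN4, WDR74, MATR3, SERBP1 and HMGN3, by 20.7 to 42.0 points, and those that rose included forms in GPSM1, AP1M1, C20orf27, SRRT, RPUSD1, ZNF598, MFN2, IMPDH2, NSMF and GATAD2A, by 24.4 to 56.9 points. GPSM1 and AP1M1 had means of 24.3 and 23 reads per library, and AP1M1 was the 1 call whose groups overlapped. Without siNT library b, each of the 11 unlisted forms that rose except IMPDH2 lost the call, with an adjusted p of up to 0.363 (AP1M1) over the libraries left out. Of those that fell, UBE2E1 lost the call without siSFSWAP library c (adjusted p = 0.163, quasi-binomial F test). DIAPH2, RTN4, WDR74 and MATR3 lost it without siNT libraries b or c or siSFSWAP libraries b or c and others, with an adjusted p of up to 0.277. SERBP1 (siSFSWAP library c), HMGN3 (siNT library a or siSFSWAP library c) and PCBP2 (4 of the 6 libraries) stayed past the adjusted p but fell under 20 points.

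A further set passed the adjusted p with a change under 20 points. Among those with lower inclusion were the 18-nt exon of DST, a cytoskeletal linker (81.0% to 61.9%, adjusted p = 0.0280), the 26-nt exon of RBBP5, a subunit of histone methyltransferase complexes (99.1% to 82.6%, adjusted p = 0.0302), and the unlisted 24-nt form in HMGN1, a nucleosome-binding protein (99.7% to 82.4%, adjusted p = 8.36e-06), all by the quasi-binomial F test. YTHDF1, NSUN2 and 2 forms in UQCRH had changes of -16.3 to -19.4 points. Among those with higher inclusion were AP1B1, a subunit of the adaptor AP-1, whose 9-nt exon went from 24.9% to 39.3% (adjusted p = 0.0121, quasi-binomial F test), and unlisted forms in the ribosomal genes RPL37A and RPS21 and in RACK1. The 19-nt RPL37A form stood at 77.7%, 78.2% and 75% in siNT and at 96.7%, 96.3% and 96.0% in siSFSWAP, just under the threshold of 20 points at the smallest adjusted p of any microexon, 7.05e-12. THYN1, XRCC6, CBR4 and HNRNPH1 were higher by 9.83 to 17.5 points.

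Some larger differences did not pass the adjusted p although their groups did not overlap. The 27-nt exon of BAZ2B, a chromatin remodelling subunit, was included at 66.8%, 67.7% and 48.5% in siNT and at 44%, 6.67% and 35.5% in siSFSWAP (adjusted p = 0.0742, quasi-binomial F test). The 18-nt exon of RAPGEF2, an activator of RAP GTPases, was included at 57.4%, 53.0% and 60.6% against 39.7%, 35.5% and 20.2% (adjusted p = 0.0623, quasi-binomial F test). EXO1, PHACTR4, SAAL1, PVR, SEPTIN7 and TMEM126A had differences of -15.9 to -23.2 points. On the other side, CACNA1H had a second, unlisted exon of 15 nt at 53.6% against 76.3% (adjusted p = 0.0687, quasi-binomial F test), and the 15-nt exon of ARHGAP12, a GTPase-activating protein, stood at 66.5% against 85.5% (adjusted p = 0.0534, quasi-binomial F test). NCAM1, CYC1, FOXRED2, TCP1 and KMT2D had higher means by 15.6 to 21.4 points.

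Among microexons at intermediate inclusion, those with many reads carry less counting error, which does not cover the spread between libraries. The 25-nt unlisted exon of SNRPB, a core snRNP protein, held 2886 reads per library and was included at 38.3%, 33.7% and 40.9% in siNT and at 23.8%, 23.5% and 20.5% in siSFSWAP (-15.0 points, adjusted p = 1.33e-08, quasi-binomial F test). The 24-nt exon of FLNA, an actin cross-linker, held 1178 reads and overlapped between groups, at 73.8%, 55.8% and 60.4% against 60.1%, 51.3% and 35.2%. Its change of -14.5 points passed at 0.00713 (adjusted p, quasi-binomial F test), but the adjusted p reached 0.539 with 1 library left out. ACLY, the enzyme that makes cytosolic acetyl-CoA, has a 30-nt exon with 408 reads that was included at 54.3%, 56.2% and 53.4% in siNT and at 52.2%, 53.4% and 56.2% in siSFSWAP, a change of -0.70 points (adjusted p = 0.889, quasi-binomial F test). DIAPH1, a formin, had a 27-nt exon at 78.0% against 72.8% (adjusted p = 0.311, quasi-binomial F test) and a 9-nt exon at 98.4% against 96.4%, and ADRM1, a proteasome ubiquitin receptor, a 25-nt exon at 26.8% against 30.4%, none of which passed.

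Genes with neuronal microexons, a list of 45 genes, contributed 23 microexons in 15 genes. None was called, and by the unadjusted p under 0.05 4 were lower and 0 higher, while limma on log2 odds called 0. Of the 23, 18 were included at under 20% in siNT. In PTK2, the focal adhesion kinase, the 9-nt exon was included at 3.17%, 7.24% and 11.8% in siNT and at 2.20%, 0.899% and 2.78% in siSFSWAP. ABI1, a regulator of the WAVE complex, stood at 4.18% against 1.58%, the 15-nt exon of SPTAN1, spectrin alpha, at 2.66% against 1.40%, and the receptor phosphatase PTPRF at 1.64% against 1.46% and 0.993% against 1.40% for exons of 12 and 27 nt. The 18-nt exon of SPTAN1 differs from them, with an inclusion of 83.4%, 86.1% and 81.6% in siNT and 84.5%, 85.2% and 82.4% after knockdown. The median change of the list was 0.08 points, beside -0.48 for all microexons.

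Other functional lists gave few calls. Those of membrane traffic, cytoskeleton, chromatin and RNA processing genes were made from gene name patterns and are incomplete. Of 30 microexons in the membrane traffic list 2 rose (AP1M1 and AP2M1) and 1 fell (DNM2). MON2 and CYTH1, which fell, and SH3GLB2, which rose, are not in that list. Within it the 21-nt exon of the clathrin heavy chain CLTC stood at 7.30% against 3.91%. AP3D1, SEC63 and SNX5 were included at 0.949%, 0.346% and 0.955% in siNT and at 0.114%, 0.331% and 0.719% in siSFSWAP. Of 51 in genes of the cytoskeleton and adhesion 2 fell (MYO5A and DIAPH2), and of 57 in chromatin and transcription genes 3 fell (both SUPT5H forms and HMGN3) and 1 rose (ZNF598). The 30-nt exon of HMGN1 changed by -3.98 points from 99.9% and that of HMGN3 by -7.05 points from 99.3%, both past the adjusted p, while HMGN2 at 30 nt went from 99.9% to 99.7%. Of 42 in the RNA processing list 1 fell (PCBP2), and the 26-nt exon of HNRNPC went from 83.2% to 77.7%. MATR3, which fell, and SRRT, which rose, are not in that list. The shares are to be read beside the 3.59% and 1.85% of all microexons, and the list medians of -0.34 to -1.19 points beside -0.48. The microexon regulators held 3 microexons, in PTBP1 and SRRM1, which changed by -0.36 to 1.93 points. The genes that the study discusses held no microexon within the read limits.

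The direction of change went with the base composition of the intron in front of the exon. Of microexons at 20% or more in siNT, 8.43% of those with under 40% G and C in the last 60 intron bases fell, 6.31% of those with 40 to 50% and 1.55% of those with 50% or more. Of microexons at 80% or less, 0 of 222, 1 of 106 and 15 of 149 rose, or 10.1% in the last class. The count of 0 is from the quasi-binomial F test with both thresholds. By the unadjusted p under 0.05 alone, 20 microexons of the low class were higher and 1 of them by 20 points, and limma on log2 odds called 0. Over the 167 microexons at 20 to 80% in siNT, change and G and C share had a Pearson's r of 0.44 and a Spearman's rho of 0.46, values across exons that share the same 6 libraries and are given without a test. The annotated microexons alone had an r of 0.39 and a rho of 0.35 (n = 83), and those that also share no edge with a longer exon 0.31 and 0.22 (n = 69). Without siNT library a these pairs of values were 0.51 and 0.50 (n = 169), 0.51 and 0.46 (n = 79), and 0.45 and 0.32 (n = 65). The shares that fell were then 7.26%, 5.45% and 1.57% in the 3 classes, and in the upper 2 classes 4 of 109 and 25 of 154 rose.

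**Figure D4:**
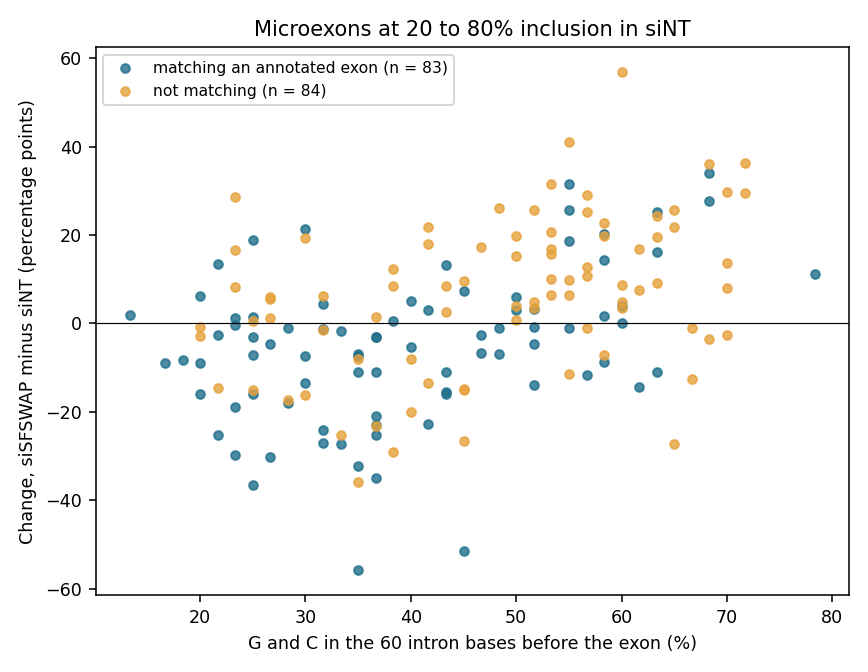
Change in inclusion (siSFSWAP minus siNT, percentage points) against the share of G and C (%) in the 60 intron bases before the exon, for the 167 microexons at 20 to 80% inclusion in siNT. Blue points match an annotated exon (n = 83) and orange points do not (n = 84). The called higher ones lie at 40% G and C or more.

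Exons above 60 nt showed the same gradient, with a Pearson's r of 0.48 over 4682 exons, and annotated ones had the same r of 0.48 (n = 2826). Their shares that fell were 1.24%, 0.809% and 0.310% in the 3 classes and those that rose 0.267%, 0.944% and 8.92%. In each class the share of microexons that fell was above that of longer exons. The shares that rose were near those of longer exons in the pooled set, at 0.943% and 10.1% in the classes of 40% and above. Among annotated exons of 50% or more, 9.80% of microexons rose, or 6.67% of those sharing no edge, beside 11% of longer exons, and the 5 annotated microexons that rose all lie in that class. No test was made of these differences. The base composition also goes with the annotation and the length of introns. Called higher microexons had a median upstream intron of 369 nt and called lower ones of 1534 nt, beside 1206 nt for all microexons, and the part of each in the result was not tested. The pyrimidine share of 20 upstream bases, counted up to 3 bases before the exon, had a median of 67.5% in the 16 that rose, 70.0% in the 31 that fell and 70.0% in all. The letters TGC, searched on the coding strand in the last 20 intron bases, occurred before 31% of microexons and 30.3% of all exons, before 10 of the 31 that fell and 7 of the 16 that rose. A match of 3 letters is a description of the sequence and not a binding site.

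By length, frame and position the calls were counted without a test. Up to 15 nt 10 of 208 microexons fell and 4 rose, from 16 to 27 nt 17 of 477 fell and 10 rose, and from 28 to 30 nt 4 of 179 fell and 2 rose. Of 457 microexons with a length divisible by 3, 16 fell and 10 rose, and of the other 407, 15 fell and 6 rose, so that both shares that fell lay near the 3.59% of all microexons. Without siNT library a these counts were 14 and 16, and 13 and 13. Among the 350 annotated coding microexons 15 fell and 5 rose, with a median change of -1.54 points. Of these 350, 73.1% keep the reading frame. By level, 387 microexons were included above 80% in siNT with a median change of -1.51 points, 167 between 20 and 80% with 0.82 points, and 310 under 20% with -0.02 points. In the middle group the annotated microexons alone had a median change of -4.68 points (n = 83), beside 6.99 points for annotated exons above 60 nt at the same inclusion. Without siNT library a, with classes set by the other siNT libraries, these medians were -2.51 points (n = 79) and 9.62 points, and that of all microexons in the middle group was 3.17 points.

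Introns beside microexons were examined in the retained intron table. Retention is the reads that hold the intron over their effective length, divided by the sum with the spliced reads over theirs. For the whole interval between the neighbouring exons, the spliced reads are those that skip the microexon, and transcripts that include it are left out. Retention of a whole interval and inclusion of its microexon are therefore not independent. For 208 microexons at least 1 neighbouring intron, or the whole interval between the neighbouring exons, was among the tested introns, 239 in all. Of these 6 fell (beside 1.61% of all 10155 tested introns) and 1 rose (beside 0.148%). The whole interval of 205 nt in HMGN1, which holds the 24-nt and 30-nt forms, was retained at 100%, 96.5% and 100% in siNT and at 49.5%, 55.6% and 44.4% in siSFSWAP (adjusted p = 0.000491, quasi-binomial F test). The retention of the interval and the inclusion of both exons were lower after knockdown, each measured against the reads that skip the exons. The intron after both forms was retained at 2.66% in siNT and 2.49% in siSFSWAP (adjusted p = 0.951, quasi-binomial F test). The intron before the 30-nt form stood at 3.78% and 3.82% (adjusted p = 0.981, quasi-binomial F test). SNHG1, MATR3 and GAS5 had changes of -26.9, -23.5 and -20.9 points in retention of the whole interval. Each has a microexon that also fell, measured against the same skipping reads. ISYNA1 had a change of -31.7 points in the intron after its 17-nt exon. The 1 rise was in HNRNPH1, a splicing regulator, where the interval of 802 nt went from 18.8%, 11.9% and 9.69% to 42.7%, 44.2% and 50.9%. The count of introns that fell was 3 without siNT library b or siSFSWAP library a and 2 without siSFSWAP libraries b or c, and limma on log2 odds called 0 introns in either direction. The count that rose was 2 without siNT library a. The other called microexons with a tested intron showed no retention call, for example the 3 intervals at AP2M1, with changes of -4.74, -2.95 and 2.72 points.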

How the data were processed

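Polyadenylated RNA from HEK293A-TOA cells was sequenced by the authors in 3 libraries for siNT and 3 for siSFSWAP. The authors' trimming used cutadapt 1.9.1, and STAR 2.7 placed the reads on GRCh38 with GENCODE release 40 before junction reads were counted with rMATS on all 6 libraries. The deposited skipped exon and retained intron tables hold whole-number read counts of inclusion and skipping as lists of 3 per group, without library names, and the effective length of each form. That the first group is siNT follows from the definition of the difference in the study's methods, and the spliced reads of SFSWAP were compared with it. The authors' columns of p-values, FDR, inclusion levels and their differences were not used. No source used here says whether the libraries keep strand, so overlapping genes cannot be told apart.

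Microexons, gene lists and tests were chosen with earlier results of these data known. Inclusion was the inclusion reads over their effective length, divided by the sum with the skipping reads over theirs (99 nt). Changes were tested in R 4.3.3 by quasi-binomial F tests (two-sided), the dispersion moderated over all events with limma 3.58.1 and floored at the binomial value, with Benjamini-Hochberg adjustment over all events of the table. Calls needed an adjusted p no larger than 0.05 and 20 or more points of change. Genes were compared by limma on log2(CPM + 0.5) of spliced reads, which change with splicing and are not gene expression. Python 3.11.15, pandas 2.3.3 and pysam 0.24.0 were used for coordinates and sequence, with GENCODE release 44. The tests were tried on simulated data first. p-values measure the spread between 3 libraries a group. A read can be counted in several events, and read counts without molecular identifiers cover counting error only.

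Named were the called microexons (up to 15 per direction by size), up to 8 per direction past the adjusted p alone, up to 8 per direction with groups that did not overlap, the 6 with most reads of each list, the 5 shortest, and the 10 with most reads at 20 to 80% inclusion. The called ones beyond 15 per direction, ROBO1's pairing with SLIT2 and the 30-nt HMGN2 exon were named after their values were seen. Alternatives were leaving out each library, limma on log2 odds, other read minimums, a lower change threshold, plain read shares, no dispersion floor and another choice of event. Restricting the exons to annotated ones, or to those sharing no edge with a longer exon, was added after seeing the data. The values of 1 called microexon and of the intron beside it are counted in the totals and not reported here.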

Additional observations from a re-analysis of the deposited data

How the results depend on the processing

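No paired analysis was possible because the tables list the libraries of a group without replicate numbers. The count of microexons that fell, 31, was 13 to 27 with 1 library left out, 13 by limma on log2 odds, 19 of those with at least 50 reads per library and 57 at a change threshold of 10 points. The count that rose, 16, was 1 to 29 with 1 library left out and 2 by limma. Restricted after seeing the data, exons matching the annotation gave 17 lower and 5 higher, and those sharing no edge with a longer exon 17 lower and 3 higher. The introns that fell, 6, were 2 to 7 and those that rose, 1, were 1 to 2 with 1 library left out, and limma called 0 of either. The log2 change of SFSWAP lay between -1.58 and -1.23. Changes near 0 turned sign with 1 library left out. Their ranges in points were -0.56 to 0.26 (SNX5, 23 nt), -1.85 to 0.16 (ACLY, 30 nt), -0.71 to 1.53 (SPTAN1, 18 nt), -0.998 to 0.55 (PTPRF, 12 nt), -0.53 to 0.40 (PTBP1, 17 nt), -2.67 to 4.66 (PTBP1, 9 nt), -0.0086 to 0.36 (DDX39B, 20 nt) and -0.26 to 0.16 (SEC63, 28 nt). The causes of these shifts were not tested. Other settings kept the counts within 1.5 times.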
